A study of Papaver somniferum with 12 samples.

Results

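The comparison described here set the leaves of opium poppy (Papaver somniferum) cultivar B2 against those of cultivars T, Z and G pooled. Its members are set by their cultivar labels and not by measured values, namely the 3 libraries of B2 and the 9 libraries of T, Z and G (3 each), which are all 12 libraries of the series. All plants were sampled in the filling stage of the capsule, which follows petal fall, and the top leaf was taken. Per the methods of the study, all 4 cultivars came from directed breeding and were grown in 1 experimental plot, with 3 independent samples each. B2 has white petals and white seed, T and Z have white flowers with purple spots, and G has pink flowers and grey seed. The original cultivar, B1, supplied the reference transcripts and was not analysed here.

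Opium poppy makes benzylisoquinoline alkaloids, the compounds that include morphine, codeine, thebaine, papaverine and noscapine. They are built from tyrosine, first into norcoclaurine and then through branches that lead to the different end products, and they are stored in the latex of specialised cells called laticifers. Bred cultivars differ in which of these branches end in a stored product, and leaves also carry the RNA of photosynthesis, defence and primary metabolism.

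The measurement was RNA sequencing with short reads placed on 61856 unigenes, built from transcripts of B1 that were read as long molecules. The study lists these unigenes apart from its more numerous non-redundant isoforms. A value is given in RPKM, the reads per kilobase of transcript, scaled to the mapped reads of the library. Summed RPKM ran from 1009974 to 1061092 in the B2 libraries and from 993016 to 1053799 in the 9 others. The reads behind each value are not known. None of the identifiers could be paired with a gene (0 of 61856 matched a reference list of 91581 poppy genes), so unigenes are given by identifier. The functional annotation of unigenes that the study describes as deposited was not used here. No gene group was counted, and the leaf label could not be checked against marker genes. Identifiers have the form PB.number.number, where the first number commonly stands for a locus and the second for an isoform of it. All 61856 first numbers were distinct, so 0 groups of unigenes shared a locus number and isoforms of 1 locus could not be compared.

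The first question was how much of the leaf transcriptome was at another level in B2. A level of 1 RPKM or more was reached in 3 or more libraries by 33161 unigenes, and 2377 of these differed between B2 and the mean of the T, Z and G means (7.17%). Of these, 1474 were higher in B2 (4.44%) and 903 were lower (2.72%). A unigene was called when limma's moderated test gave a Benjamini-Hochberg adjusted p under 0.05 and the difference in log2(RPKM + 1) was at least 1 in size, which is a fold of 2 where levels are well above 1 RPKM. The median difference over all unigenes tested was 0.042, and 55.5% of them had a difference above 0. With each other cultivar in turn set against the mean of the 3 remaining ones, 498 unigenes were called for T (1.50%), 581 for Z (1.75%) and 302 for G (0.911%). These comparisons share libraries with the one for B2, and the difference between the counts was not tested. The counts depended on the libraries and the model: without B2 replicate 3 they were 791 for T and 517 for G, and with the 9 remaining libraries as 1 group they were 79 for T, 44 for Z and 5 for G. P-values measure the spread between samples of these cultivars, and B2 is 1 cultivar against 3.

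**Figure D1:**
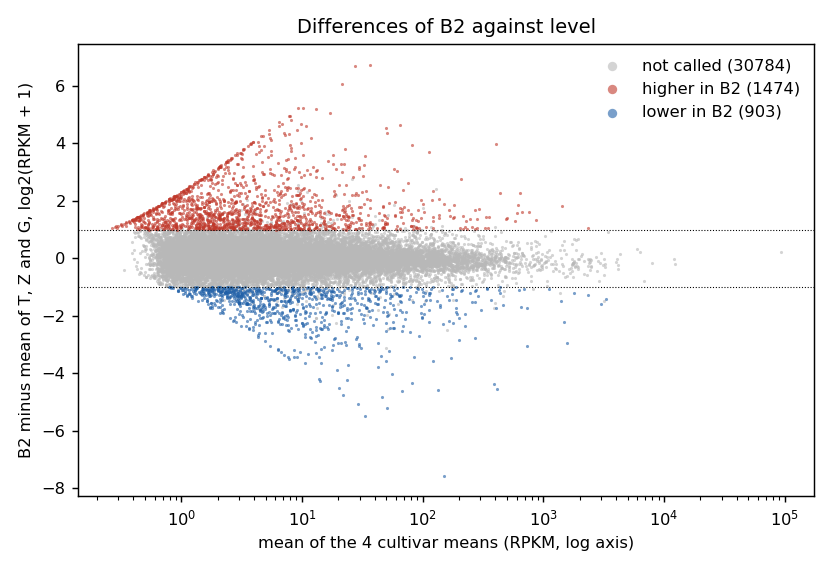
Each point is 1 of 33161 unigenes, with the mean of the 4 cultivar means on the x axis (RPKM, log axis) and the difference of B2 from the mean of T, Z and G on the y axis in log2(RPKM + 1). Red points are the 1474 unigenes called higher, blue points the 903 called lower, grey points those not called, and the dotted lines mark a difference of 1. The straight upper and lower edges on the left are unigenes close to 0 RPKM on 1 side, whose difference is bounded by their level on the other.

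Most differences were moderate, and with all 12 libraries the higher unigenes differed by somewhat more than the lower ones. The median size was 1.52 for the 1474 higher unigenes and 1.39 for the 903 lower ones on the log2(RPKM + 1) scale. A size under 2 was found for 1077 higher and 726 lower unigenes, from 2 to 3 for 271 and 128, from 3 to 4 for 92 and 33, and of 4 or more for 34 and 16. The largest differences were 6.75 above and 7.57 below. Over all unigenes tested the median size was 0.23. Without B2 replicate 3 the medians lay closer together, at 1.49 for 1766 higher and 1.43 for 1165 lower unigenes. A size of 4 or more was then found for 38 and 28 of them, and the largest differences were 6.63 above and 7.62 below.

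The called unigenes covered all levels above 1 RPKM. The level of a unigene is taken here on its high side, which is the B2 mean or the mean of the 3 other cultivar means, whichever was larger. The median was 6.94 RPKM for higher unigenes and 8.87 RPKM for lower ones, against 5.03 RPKM for all unigenes tested. Of 1175 unigenes under 1 RPKM 0 were called, which was fixed in advance. With both sides under 1 RPKM, a difference of 1 in log2(RPKM + 1) cannot be reached. Just above 1 RPKM it can be reached only with the other side near 0, which limits the share called in the class from 1 to 4 RPKM. Between 1 and 4 RPKM, 3.30% of 13257 unigenes were called higher and 1.86% lower. Between 4 and 15 RPKM the shares were 5.78% and 3.12% of 10324, between 15 and 100 RPKM 5.20% and 3.76% of 6679, and at 100 RPKM or more 5.33% and 4.87% of 1726. Higher unigenes made up 64.0%, 65.0%, 58.0% and 52.3% of those called in these classes, from the lowest to the highest. Without B2 replicate 3 the shares were 54.8%, 64.0%, 62.3% and 58.6%, with no steady course over the levels.

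The level on the low side depended on B2 replicate 3. With all 12 libraries, for 262 of the 1474 higher unigenes (17.8%) the mean of T, Z and G was under 0.1 RPKM, and 80 of these were listed at 0 in all 9 libraries. For 68 of the 903 lower unigenes (7.53%) the B2 mean was under 0.1 RPKM, with 25 listed at 0 in all 3 B2 libraries. Without B2 replicate 3 the order turned over, to 14.8% of higher and 24.0% of lower unigenes, with 80 and 159 listed at 0. The number of higher unigenes under 0.1 RPKM hardly moved, from 262 to 261, while the number called grew. That of lower ones rose from 68 to 280, with B2 replicate 3 also out of the B2 mean. Both fits used the same minimum of 1 RPKM. A unigene at 0 in the 9 other libraries met it through B2 alone, and only with all 3 B2 libraries. The 80 was thus held by the minimum, and the turnover was in part built in. With all 12 libraries, a further 404 higher and 207 lower unigenes had between 0.1 and 1 RPKM on the low side. The remaining 808 higher unigenes (54.8%) and 628 lower ones (69.5%) had at least 1 RPKM on both sides, and their median ratio of means was 3.00 for the higher and 2.75 for the lower. The reference came from B1, so a transcript whose sequence differs in a cultivar can have a low value there without a low RNA level, and the part of this in the differences was not tested.

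Single libraries showed the same pattern. The 1474 higher unigenes held 6.34%, 5.59% and 4.75% of summed RPKM in B2 replicates 1, 2 and 3, from 1.55% to 1.76% in T, from 1.49% to 1.71% in Z and from 2.06% to 2.60% in G. The 903 lower unigenes held 1.59%, 1.79% and 1.76% in the B2 libraries, from 3.94% to 4.44% in T, from 5.70% to 5.92% in Z and from 4.47% to 5.79% in G. These shares describe unigenes that were chosen for their difference, so no test was applied. Among the higher unigenes, 823 to 845 were at 1 RPKM or more in the G libraries, against 707 to 734 in T and 698 to 708 in Z. Among the lower ones, 91 were under 0.1 RPKM in B2 replicate 3, whereas 187 and 178 were in replicates 1 and 2.

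The number of unigenes detected was also larger in B2. At 0.1 RPKM or more there were 45940, 45742 and 46564 unigenes in B2 replicates 1, 2 and 3, and from 44916 to 45770 in the 9 other libraries. The B2 libraries overlapped the others by 1 library, since B2 replicate 2 was below the highest library of G. The B2 mean was 46082 ± 429 (SD, n = 3), and exceeded the mean of the other cultivar means, 45235 ± 269 (SD of 3 cultivar means), by 847 unigenes. This was larger than the spread between libraries in a two-sided exact permutation test over all 220 choices of 3 libraries from 12 (p = 0.00909, the smallest possible being 0.00455). The test treats the 12 libraries as exchangeable, although the 9 others come from 3 cultivars. Its p therefore does not measure the spread between cultivars, of which B2 is 1. Without B2 replicate 3 the excess was 606 unigenes (exact permutation p = 0.0364).

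The pooled cultivars were also compared with each other, since a mean over T, Z and G describes a unigene well only where these are alike. In limma's F-test over T, Z and G, 971 of 33161 unigenes had an adjusted p under 0.05 (2.93%). Among unigenes called higher in B2 the number was 232 of 1474 (15.7%), and among those called lower it was 75 of 903 (8.31%). Within classes of level, the share was 9.09% to 14.3% among called unigenes and 2.49% to 3.19% among all. Both tests use the same estimate of the spread of a unigene, and the difference between these shares was not tested. The median range of the T, Z and G means was 0.39 for higher unigenes, 0.51 for lower ones and 0.23 for those not called, on the log2(RPKM + 1) scale. Set against each cultivar by itself, the median difference of the higher unigenes was 1.59 from T, 1.66 from Z and 1.40 from G, and that of the lower ones was -1.32, -1.56 and -1.35. The count of 971 depended on the libraries used. It was 2335 without B2 replicate 3, whose spread enters the test, and fell to between 526 and 612 without T replicate 1, T replicate 3, Z replicate 2, Z replicate 3 or any 1 of the G libraries.

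The B2 libraries were less alike than those of the other cultivars, most of all among the lower unigenes. The median standard deviation of log2(RPKM + 1) over the 3 B2 libraries was 0.582 for lower unigenes, 0.286 for higher ones and 0.214 for those not called. In T, Z and G it was 0.181 to 0.199 for lower unigenes, 0.137 to 0.149 for higher ones and 0.121 to 0.135 for those not called. Between B2 replicates 1 and 2 alone it was 0.176, 0.161 and 0.144 for lower, higher and uncalled unigenes. The median standard deviation of 2 libraries tends to lie below that of 3, so these values cannot be set directly against those of T, Z and G. In the quality records of the study, B2 replicate 3 had the lowest RNA integrity and the lowest share of high-quality bases of all cultivar samples. B2 replicate 1 had the next lowest RNA integrity. Low integrity was thus not particular to replicate 3, and it went in part with the B2 label. The part of these in the result was not tested. In RPKM, all 3 B2 libraries lay above all 9 others for 1169 of the 1474 higher unigenes (79.3%) and below them for 560 of the 903 lower ones (62.0%). Over all unigenes tested this held for 3818 (11.5%) and 1896 (5.72%). The same values made the calls, so nothing is read from the first shares.

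Leaving out B2 replicate 3 raised the number of calls in both directions. Over the same 33161 unigenes, 2931 were then called (8.84%), with 1766 higher (5.33%) and 1165 lower in B2 (3.51%). Of the 1474 higher unigenes, 1347 remained called (91.4%, or 76.3% of the 1766), and of the 903 lower ones 747 did (82.7%, or 64.1% of the 1165). In all, 2094 calls were shared, and 0 unigenes were called in opposite directions. Only with B2 replicate 3 were 127 higher and 156 lower unigenes called, and only without it 419 higher and 418 lower ones. The mean of B2 replicates 1 and 2 was under 0.1 RPKM for 111 of the 418 lower unigenes called only without B2 replicate 3, and for 169 of the 747 called lower in both fits. It was 1 RPKM or more for 188 and 376 of them. With B2 replicate 3 in the B2 mean, 3 of the 418 and 65 of the 747 were under 0.1 RPKM.

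**Figure D2:**
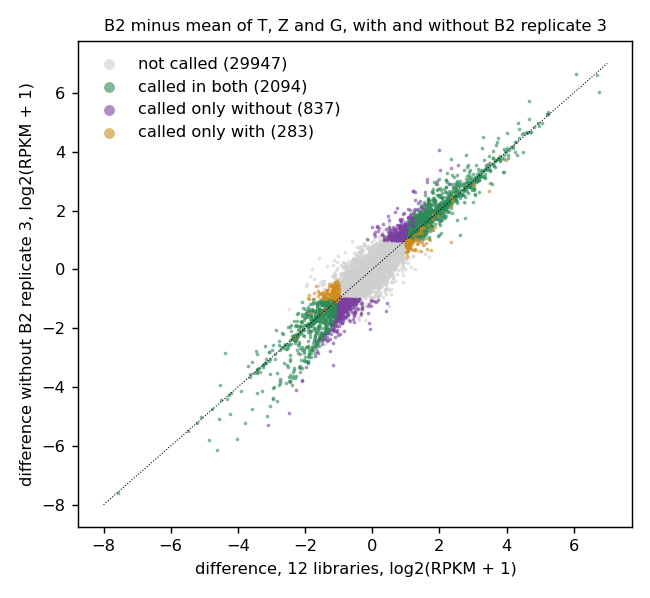
Each point is 1 unigene, with the difference of B2 from the mean of T, Z and G in log2(RPKM + 1) from all 12 libraries on the x axis and without B2 replicate 3 on the y axis. Green points are the 2094 unigenes called in both fits, purple points those called only without the library, orange points those called only with it, and the dotted line marks equal values. Purple points lie farther from 0 without the library, and many of them lie below the line on the left, where B2 was lower.

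**Figure D3:**
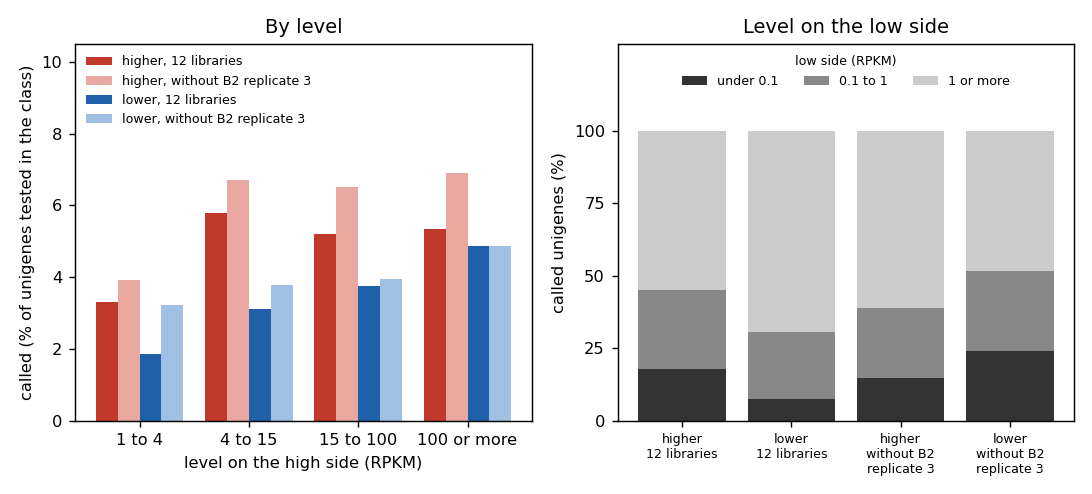
The left panel gives the share of tested unigenes called in each class of level (RPKM on the high side), for higher (red) and lower (blue) unigenes, with all 12 libraries (dark) and without B2 replicate 3 (pale). The right panel divides the called unigenes by their level on the low side. The part under 0.1 RPKM was 7.53% of lower unigenes with all 12 libraries and 24.0% without B2 replicate 3, where that library is also out of the B2 mean. It was 17.8% and 14.8% of higher ones (262 and 261 unigenes).

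To see how far 1 B2 library bears out the others, unigenes were called from 11 libraries. They were then looked up in the B2 library left out, whose values had no part in the fit. Those values did count toward the minimum of 1 RPKM in 3 or more libraries. A unigene under 1 RPKM in all 9 other libraries met it only with all 3 B2 libraries, the left-out one included. Such a unigene was bound to lie above the 9 in that library, which raises the shares given for higher unigenes. Among the 1766 called higher without B2 replicate 3, 80 were listed at 0 in all 9, but the group concerned is larger. For 261 of the 1766 the mean of T, Z and G was under 0.1 RPKM, which puts all 9 libraries under 1 RPKM. For a further 424 this mean was between 0.1 and 1 RPKM, and how many of these were bound was not counted. B2 replicate 1 followed its fellow libraries closely. Without it, 1308 unigenes (3.94%) were called higher and 692 (2.09%) lower. It lay above all 9 libraries of T, Z and G for 1220 of the higher unigenes (93.3%) and below them for 620 of the lower ones (89.6%). Over all unigenes tested, it lay above them for 27.8% and below them for 21.9%. Without B2 replicate 2, 1501 (4.53%) were called higher and 901 (2.72%) lower. It lay above for 1276 of these higher unigenes (85.0%) and below for 596 of the lower ones (66.1%), against 30.4% and 18.8% of all unigenes tested. B2 replicate 3 lay above for 1262 of 1766 higher unigenes (71.5%) and below for 592 of 1165 lower ones (50.8%), against 28.5% and 21.3%. The called unigenes were a different set for each library left out, and the differences between these shares were not tested.

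Where B2 replicate 3 did not follow the other B2 libraries, it mostly had a level found in the other cultivars, and on the lower side it sometimes exceeded them. Its value lay inside the range of the 9 libraries for 439 higher (24.9%) and 404 lower unigenes (34.7%). It lay on the opposite side, above all 9, for 169 of the 1165 lower unigenes (14.5%), and below all 9 for 65 of the 1766 higher ones (3.68%). For B2 replicate 1 the opposite side held 1 of 692 lower and 0 of 1308 higher unigenes, and for B2 replicate 2 it held 21 of 901 and 5 of 1501. On a relative scale of RPKM, where 0 is the mean of T, Z and G and 1 is the mean of the 2 other B2 libraries, the median of the left-out library was 0.99 for higher and 1.00 for lower unigenes in replicate 1, and 0.88 and 0.84 in replicate 2. In replicate 3 it was 0.67 and 0.53. The values of replicate 3 were spread widely rather than gathered between both levels. Of its lower unigenes, 464 (39.8%) were under 0.25, 216 (18.5%) were from 0.25 to 0.75 and 485 (41.6%) were at 0.75 or more. Of its higher unigenes these classes held 470 (26.6%), 503 (28.5%) and 793 (44.9%).

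**Figure D4:**
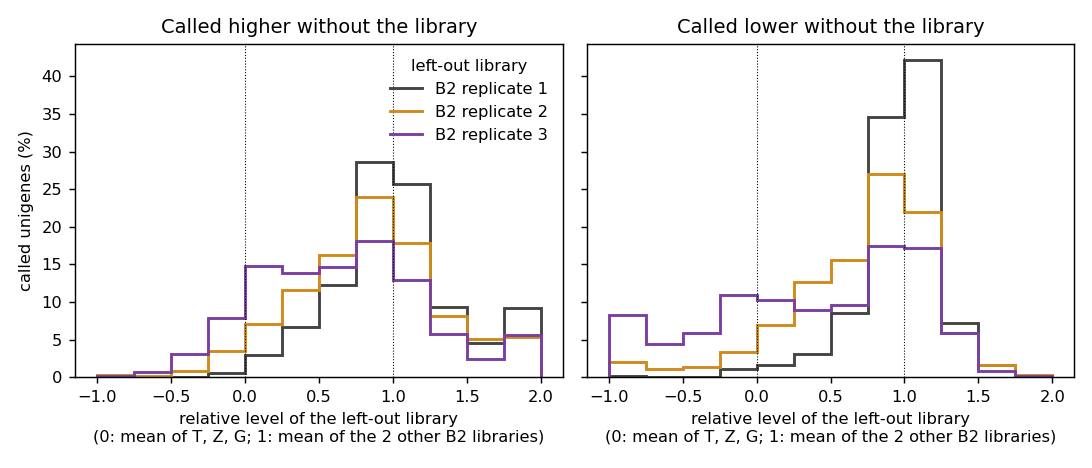
Distribution of the relative level of a left-out B2 library (x axis, no unit, 0 at the mean of T, Z and G and 1 at the mean of the 2 other B2 libraries) over the unigenes called higher (left) or lower (right) without it, as a percentage of those unigenes on the y axis. Values beyond the axis are counted in the end classes. B2 replicate 1 peaks near 1 in both panels, whereas B2 replicate 3 has values from below 0 to above 1 and, among lower unigenes, 39.8% under 0.25.

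Unigenes named here are the most abundant of those that met 3 conditions, namely a call, no overlap between B2 and the other libraries, and the same call without B2 replicate 3. On the higher side 1101 unigenes met them, and PB.3561.47 had the highest B2 mean. In B2 replicates 1, 2 and 3 its level was 4238, 3242 and 3847 RPKM. In T it had 1771, 1422 and 1981 RPKM, in Z 2459, 1526 and 2308 RPKM, and in G 2059, 1350 and 1847 RPKM. All 3 B2 libraries were above the other 9, and T, Z and G overlapped each other. The ratio of the B2 mean to the mean of the others was 2.03, and the log2 difference was 1.04 (SE 0.185, limma adjusted p = 0.00196). The difference stood at the threshold of 1, and the call was lost after median-ratio scaling of the libraries (0.97) and without B2 replicate 1 (0.95), Z replicate 2 (0.97) or G replicate 2 (0.98).

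On the lower side 501 unigenes met the conditions, and PB.57413.9 had the highest mean in the other cultivars. In B2 replicates 1, 2 and 3 its level was 1122, 1250 and 940 RPKM. In T it had 2760, 2831 and 2470 RPKM, in Z 4414, 2915 and 3014 RPKM, and in G 2139, 1955 and 2093 RPKM. The 3 B2 libraries were below all others, and the G libraries were the next lowest. The mean of the others was 2.48 times the B2 mean, and the log2 difference was -1.28 (SE 0.142, limma adjusted p = 7.74e-05), or -1.16 without B2 replicate 3 (SE 0.151, adjusted p = 0.000249). Against single cultivars it was -1.29 for T, -1.63 for Z and -0.91 for G.

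A further pair was chosen after values had been seen, to show the behaviour of B2 replicate 3 at high levels. Both are the most abundant, in their direction, of the unigenes called without this library whose value in it lay inside the range of the 9 others. PB.24983.8 was at 5149 and 3481 RPKM in B2 replicates 1 and 2 but 840 RPKM in B2 replicate 3. It had 644, 539 and 428 RPKM in T, 751, 319 and 307 RPKM in Z, and 1550, 1965 and 1234 RPKM in G. B2 replicate 3 was thus below the G libraries and above those of T and Z. The log2 difference was 2.59 without B2 replicate 3 (SE 0.323, limma adjusted p = 0.000185) and 1.81 with it (SE 0.473, adjusted p = 0.016). It was no longer called without B2 replicate 1 (1.28, adjusted p = 0.095), without B2 replicate 2 (1.57, adjusted p = 0.0659) or with the 9 libraries as 1 group (1.81, adjusted p = 0.0549).

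PB.734.2622 had 3305 and 2446 RPKM in B2 replicates 1 and 2 and 8070 RPKM in B2 replicate 3. In T it had 12781, 8736 and 9992 RPKM, in Z 7364, 3779 and 7105 RPKM, and in G 5717, 4906 and 6826 RPKM. B2 replicates 1 and 2 were below all 9 other libraries, whereas B2 replicate 3 was above all libraries of Z and G and below those of T. The log2 difference was -1.31 without B2 replicate 3 (SE 0.261, limma adjusted p = 0.00363). With all 12 libraries it was -0.81 (SE 0.334, adjusted p = 0.0962), which was not called. With array quality weights, which count noisy libraries less, it was -1.12 (adjusted p = 0.00251).

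**Figure D5:**
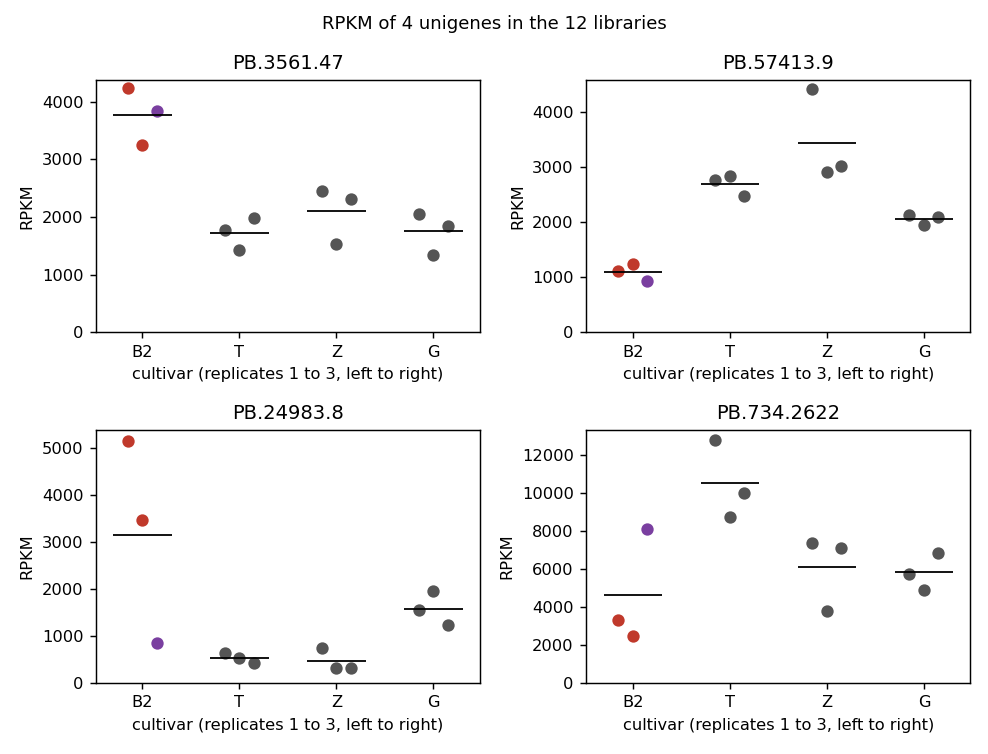
RPKM (y axis) of 4 unigenes in the 12 libraries, grouped by cultivar on the x axis, with 1 point per library and a line at the mean of 3. B2 replicates 1 and 2 are red, B2 replicate 3 is purple, and the other libraries are grey. In the upper panels all B2 libraries stand apart from the 9 others, whereas in the lower panels B2 replicate 3 lies at 840 and 8070 RPKM, among the other cultivars.

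The last number of an identifier, taken up after the data had been seen, was related to the share of calls. The sources used here do not state what it counts, and it runs up to 2622, the last number of PB.734.2622. Among 18255 tested unigenes with a last number of 1, 7.93% were called, with 900 higher and 548 lower. The share was 6.43% of 10034 unigenes numbered 2 to 4, 6.28% of 2979 numbered 5 to 9 and 5.12% of 1893 numbered 10 or more. Level moved with the number, from a median of 3.53 RPKM on the high side at 1 to 17.8 RPKM at 10 or more. Within classes of level the share of calls was again largest at 1. It was 11% at 1 and 3.85% at 10 or more between 4 and 15 RPKM, and 11.6% and 4.96% between 15 and 100 RPKM. At 100 RPKM or more it was 14.6% at 1, 7.14% at 5 to 9 and 9.90% at 10 or more. Without B2 replicate 3 the shares over all levels were 9.93%, 7.74%, 7.32% and 6.55% in the same order. Unigenes of 1 class are not replicates of each other, and no test was applied.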

How the data were processed

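RNA of 12 leaf samples was sequenced, 3 per cultivar. The authors discarded reads of low quality, placed the others on the unigenes with HISAT2 2.05 (version per the submitters' processing notes) and quantified them with RSEM. The unigenes had been built from PacBio reads of B1. The deposited values are RPKM with 2 decimals. The study's data records give this name, whereas its methods name a unit based on fragments. RSEM divides reads among similar unigenes, so values of near-identical unigenes are uncertain. Depth per library could not be read from the low values: in all 66 pairs of libraries the commonest ratio was 1, which held at most 5.57% of unigenes. No counting interval is therefore given. Every column belonged to 1 library, and 0 pairs of libraries were identical.

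Unigenes that reached 1 RPKM in 3 or more libraries were kept, and values were transformed to log2(RPKM + 1), which understates the differences of low unigenes. Limma 3.58.1 in R 4.3.3 was fitted with 1 mean per cultivar (trend in eBayes). The contrast was B2 minus the mean of T, Z and G, with p-values adjusted by the Benjamini-Hochberg method over all unigenes tested and the thresholds of the study (fold of 2, adjusted p under 0.05). Leave-one-out fits used the same unigenes. Fits were tested on simulated data of 33161 unigenes, with 50 unigenes changed at each of 4 sizes. At log2 differences of 1.5, -1.5, 2.5 and -2.5, 46, 47, 49 and 50 of these were recovered. The simulated comparison also gave 92 false calls, more than any 1 of these 4 numbers. As a share of all its calls this was well above the 0.05 of the adjusted p. The simulation therefore does not show that false calls were held to that share. How far this carries over to the calls reported here was not tested. Alternatives were the pseudocount, the filter, median-ratio scaling, no threshold on the difference, array quality weights, T, Z and G as 1 group, the replicate number as a block, and each library left out. Results planned on isoform groups were not computed, because no group held more than 1 unigene. For the same reason the naming rule, which allowed 2 higher and 2 lower unigenes with 1 pair from a single group, gave 1 pair. The members, though set by label, and the lists and tests were proposed with earlier results of these data known. Figures were drawn with matplotlib 3.10.9 in Python 3.11.15.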

Additional observations from a re-analysis of the deposited data

Results flagged for a closer look

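PB.57413.9 had 4413.5 RPKM in Z replicate 1, the highest of the 9 libraries of T, Z and G. Its gap to the next library was 0.569 of the range of the 9, above Dixon's critical value. The 9 libraries come from 3 cultivars, and chance gives such a gap in about 1 of 20 groups. Of 5 measures examined in this way it was the 1 that passed.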

How the results depend on the processing

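The 10 counts and differences that answer a comparison were computed under 191 alternative values. Of these, 155 stayed on the same side of 0.05 or within 1.5 times of the count, and 36 counts moved by more. Counts have no sign and could not reverse, and the excess of detected unigenes in B2 kept its sign. Of 80 values for the 4 named unigenes, 71 kept their call, 7 lost it, 2 gained it and 0 reversed. A pseudocount of 0.1, which gives low unigenes larger differences, gave 3658 differing unigenes, with 1549 lower, and 3189 kept without B2 replicate 3. With 1 of T, Z and G set against the 3 others it gave 1022, 1193 and 792. With a minimum of 4 RPKM fewer unigenes were tested, which gave 1569, with 866 higher, 1063 not overlapping, 1359 kept without B2 replicate 3, and 583 differing among T, Z and G. The adjusted p alone gave by its construction more calls: 9541, with 5810 higher and 3731 lower, 5478 not overlapping, 8011 kept without B2 replicate 3, and 2041, 2640 and 1199 for T, Z and G. Array quality weights gave 3806 among T, Z and G, and 839 for T and 626 for G against the 3 others. Pooling the 9 libraries as 1 group puts differences among cultivars into the spread, and gave 79, 44 and 5 for T, Z and G.

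With each of the 12 libraries left out in turn, the ranges were 2000 to 2931 differing unigenes, 1308 to 1766 higher, 692 to 1165 lower, 1733 to 2677 not overlapping, 1558 to 2098 kept without B2 replicate 3, and 526 to 2335 among T, Z and G. They were 363 to 791, 423 to 727 and 209 to 517 for T, Z and G against the 3 others, and 606 to 1017 for the excess of detected unigenes in B2 (exact permutation p from 0.00606 to 0.0364). The highest count came without B2 replicate 3, except for unigenes kept without it (without T replicate 2) and for detected unigenes (without B2 replicate 2). A lack of overlap is easier to reach with fewer libraries. The range for it therefore lay above the 1729 of all 12 libraries in part by construction. Median-ratio scaling moved the median difference of all unigenes from 0.042 to -0.017 and the share of higher ones among calls from 62.0% to 56.6%.

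The replicate numbers were not taken as a pairing. No label ties a number to a shared plot, day or batch, and the deviations of same-numbered libraries correlated at -0.10 to 0.19 (18 pairs, mean 0.055, 6 over 0.1; mean of other pairs -0.027). As a hint of some shared deviation, 9 of 12 libraries correlated best with their own number. With the replicate number as a block, 2390 unigenes differed (1474 higher and 916 lower). The SE of PB.3561.47 was then 0.0981, and the adjusted p of PB.734.2622 was 0.0406 in limma's test at a difference of -0.81, still under 1 in size. The number of reads behind low values is unknown, so unigenes near 0 RPKM are the least certain.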
